A study of Mus musculus with 8 samples.

Results

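10 genes of vascular tone were followed in the mouse aorta: Kcnma1, Kcnmb1, Kcnj8, Abcc9, Kcna5, Cacna1c, Trpc6, Ryr2, Itpr1 and Ano1. They were chosen by name as smooth muscle ion channel or calcium-store genes, and they are 10 of the 21859 genes in the files. All 10 passed the filter on low counts and were among the 15077 genes tested. RNA-Seq was done on whole aortas of 40-week-old male mice fed a chow diet. Aortas of ApoE knockout mice (ApoE-/-, n = 4), which lack apolipoprotein E in every cell from birth and are prone to atherosclerosis, were compared with aortas of wild-type C57BL/6 mice (WT, n = 4). Each library came from 1 mouse, and the mice of both genotypes were fasted, killed with ketamine and xylazine and perfused with saline.

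The muscle of an artery tightens when calcium in its cells rises and relaxes when potassium leaves the cell. Calcium enters through voltage-gated and receptor-operated channels of the cell membrane and is released from the sarcoplasmic reticulum by inositol trisphosphate receptors and ryanodine receptors. Potassium channels hyperpolarise the membrane and so close the voltage-gated calcium channels, while the exit of chloride depolarises it and opens them.

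None of the 10 genes passed the test of a difference between genotypes. With edgeR's quasi-likelihood test, 0 of 10 passed an adjusted p of 0.05, beside 0.464% of all genes tested. At an unadjusted p of 0.05 the count was also 0 of 10, beside 11.4% of all genes, and DESeq2 called 0 of 10, beside 4.97%. In 0 of 10 did the ApoE-/- and WT libraries separate without overlap, beside 8.71% of all genes. The log2 fold changes (ApoE-/- over WT) of the 10 ran from -0.23 to 0.37 with a median of 0.04, beside a median of 0.05 for all genes, and 4 of 10 lay below 0, beside 42.0% of all genes. All 10 genes spread more widely among ApoE-/- than among WT aortas, as did 85.4% of all genes, and 5 of them had a correlation over 0.8 with the markers of contractile smooth muscle, beside 13.7% of all genes.

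The libraries held 23240995 to 23940156 read pairs on genes in ApoE-/- aortas and 18375898 to 21664598 in WT aortas. Apoe itself was at 14.7 to 36.3 CPM (counts scaled to library size) in ApoE-/- libraries and at 536 to 857 CPM in WT libraries, as the labels say. The 11 listed markers of contractile smooth muscle, among them Acta2 and Myh11, were present in every library. Their score, the mean log2 CPM of the list, was 8.39 in ApoE-/- replicate 1 and 9.65 to 10.41 in the other ApoE-/- libraries, against 9.56 to 10.45 in WT libraries (difference -0.28, exact two-sided permutation test, p = 0.743). The summed CPM of these markers ran from 6241 to 25159 in ApoE-/- libraries and from 13808 to 25675 in WT libraries. ApoE-/- replicate 1 also held 4471 summed CPM of the 8 sympathetic neuron markers, such as Th and Dbh, against 53.1 to 356 in the other ApoE-/- libraries and 229 to 827 in WT libraries. All 9 cardiac muscle markers, among them Myh6, were lower in ApoE-/- aortas, with 24.6 to 133 summed CPM against 229 to 525. All 10 macrophage markers were higher, with 421 to 1852 against 240 to 355. Both of these scores separated the genotypes (p = 0.0286 each in the exact permutation test, the smallest p that 4 against 4 allows). In whole-tissue RNA, fewer cells of a type and less RNA per cell cannot be told apart.

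The stretch of 250 bases before the transcription start was read from RefSeq (GRCm38.p6) for 9 of the 10 genes, all but Itpr1. These windows were searched for the CArG box, the site of serum response factor in many smooth muscle genes, which reads the same on both strands. Only the strict form was searched, CC and GG with nothing but A or T between them, 10 bases in all. Looser forms and sites outside the windows were not searched. A CArG box was found in 1 of 9 genes, Trpc6, with the letters CCTTTAAAGG, 122 bases before the start. Among all genes with a window, 1.62% held one, and among the contractile markers with a window 1 of 8 did. The windows of 3 genes are shown, each 5′ to 3′ on the strand of its gene and with a CArG box in capitals, because Kcnmb1 and Abcc9 were among the genes that varied most closely with the contractile markers and Trpc6 was the gene with a CArG box.
Kcnmb1, chr11:33962763-33963012, plus strand: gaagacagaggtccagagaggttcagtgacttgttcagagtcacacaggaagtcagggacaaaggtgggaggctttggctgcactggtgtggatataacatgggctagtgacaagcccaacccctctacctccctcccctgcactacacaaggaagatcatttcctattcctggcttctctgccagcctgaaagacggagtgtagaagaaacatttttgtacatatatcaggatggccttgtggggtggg
Abcc9, chr6:142702275-142702524, minus strand: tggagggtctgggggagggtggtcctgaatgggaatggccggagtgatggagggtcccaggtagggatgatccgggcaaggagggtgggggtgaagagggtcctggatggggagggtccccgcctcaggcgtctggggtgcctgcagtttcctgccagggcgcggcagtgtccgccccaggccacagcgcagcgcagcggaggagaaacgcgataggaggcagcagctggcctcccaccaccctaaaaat
Trpc6, chr9:8543892-8544141, plus strand: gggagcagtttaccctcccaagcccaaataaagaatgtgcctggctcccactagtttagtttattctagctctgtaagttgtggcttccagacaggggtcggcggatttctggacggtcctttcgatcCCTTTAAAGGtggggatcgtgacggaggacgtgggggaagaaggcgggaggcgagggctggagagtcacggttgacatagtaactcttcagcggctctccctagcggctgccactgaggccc
The windows of Kcnmb1 and Abcc9 hold no match to the strict form of the CArG box. The GC content was 50.8% for Kcnmb1, 66.8% for Abcc9 and 56.4% for Trpc6.

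Levels of different genes were compared only after division by exon length, as CPM per kb (GENCODE M21). In WT aortas the highest was Abcc9 at 54.0 ± 7.67 CPM per kb (SD, n = 4), followed by Itpr1 at 35.1 ± 4.44. Kcnj8 (18.03 ± 2.50), Ano1 (17.8 ± 2.41) and Kcnmb1 (15.4 ± 4.26) came next. Cacna1c (8.95 ± 2.14), Kcna5 (8.67 ± 1.47), Kcnma1 (8.62 ± 2.01) and Ryr2 (8.25 ± 2.28) lay close together, and Trpc6 was last at 1.42 ± 0.18. Neighbours in this order overlapped except at 3 steps: Abcc9 above Itpr1, Itpr1 above Kcnj8, and Ryr2 above Trpc6. In ApoE-/- aortas Abcc9 (67.6 ± 28.1) and Itpr1 (35.3 ± 11.9) again came first and Trpc6 (1.41 ± 0.61) last, and the only neighbours that did not overlap were Kcna5 and Trpc6. The plot of CPM in each aorta shows the values of all 10 genes.

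**Figure D1:**
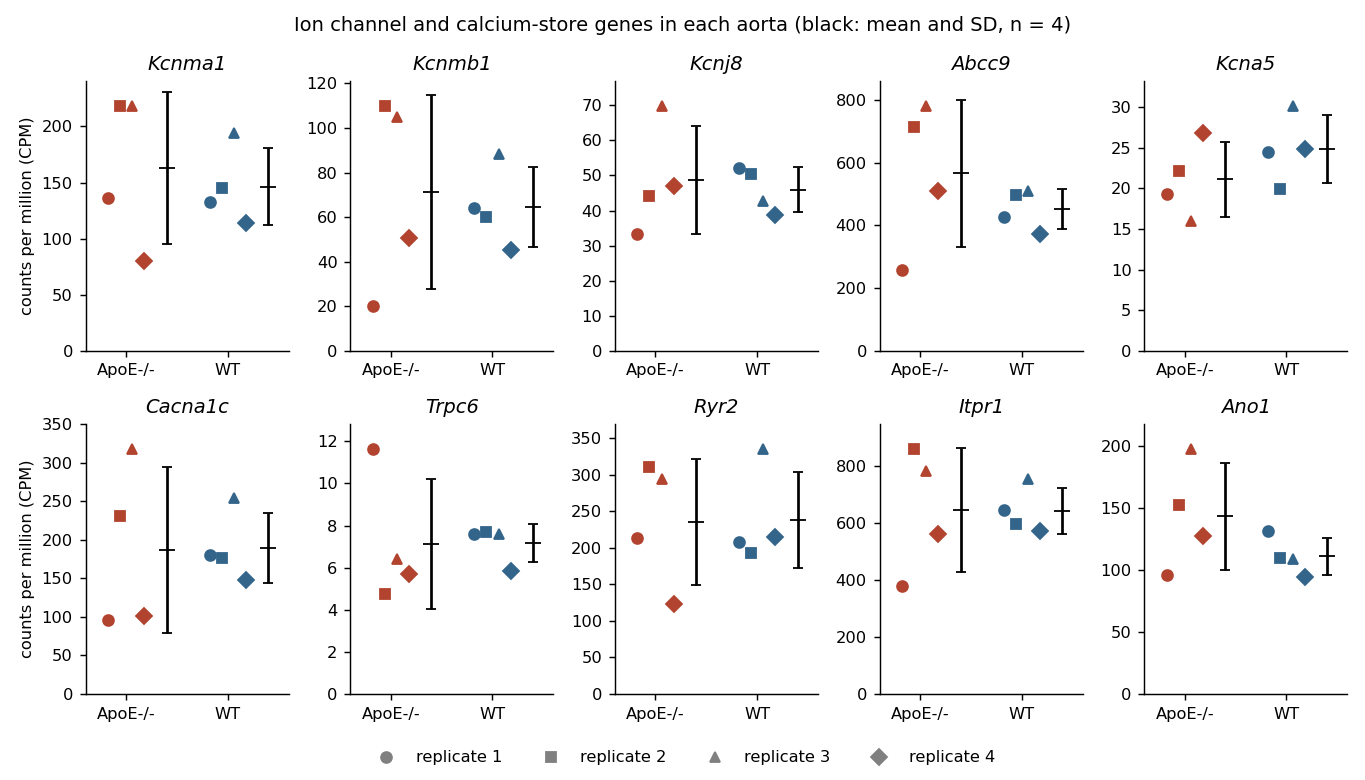
CPM (vertical axis, from 0) of the 10 genes in each of the 4 ApoE-/- (red) and 4 WT (blue) aortas, with a marker shape for each replicate number and the mean and SD of each genotype in black. The genotypes overlap for every gene, and the ApoE-/- points spread more widely than the WT points, from 19.9 to 110 CPM for Kcnmb1.

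Potassium channels made up 5 of the 10 genes. Kcnma1 (chr14:23289431-24014491, minus strand) encodes the pore of the BK channel, which opens to calcium and voltage and lets potassium out. Its CPM were 136, 219, 218 and 80.0 in ApoE-/- replicates 1 to 4 and 132, 145, 194 and 114 in WT replicates 1 to 4. The lowest value and the highest 2 were all ApoE-/- libraries, and the log2 fold change was 0.16 (SE 0.33, adjusted p = 0.914, edgeR). The 95% interval of the fold ran from 0.664 to 1.87.

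Kcnmb1 (chr11:33963013-33973641, plus strand) encodes the smooth muscle beta subunit that makes the BK channel more sensitive to calcium. It gave 19.9, 110, 105 and 50.6 CPM in ApoE-/- replicates 1 to 4, against 64.2, 60.2, 88.4 and 45.3 CPM in WT replicates 1 to 4. ApoE-/- replicate 1 was the lowest of the 8 libraries and ApoE-/- replicates 2 and 3 the highest. No other member spread so far, with a 5.52-fold range among ApoE-/- libraries and a 1.95-fold range among WT libraries. The log2 fold change was 0.15 (SE 0.49, adjusted p = 0.954, edgeR), and the 95% interval of the fold, 0.507 to 2.42, was the widest of the 10.

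Kcnj8 (chr6:142564837-142571614, minus strand) encodes Kir6.1, the pore of the vascular ATP-sensitive potassium channel, which links membrane potential to metabolism. Kcnj8 was at 33.3, 44.2, 69.96 and 46.9 CPM in ApoE-/- replicates 1 to 4 and at 52.0, 50.5, 42.6 and 38.7 CPM in WT replicates 1 to 4. Its lowest and highest values were both from ApoE-/- mice, and the log2 fold change was 0.08 (SE 0.22, adjusted p = 0.941, edgeR). Abcc9 (chr6:142587862-142702315, minus strand) lies next to it on the chromosome and encodes SUR2, the regulatory subunit of the same channel. Abcc9 was at 259, 714, 782 and 509 CPM in ApoE-/- replicates 1 to 4 and at 428, 497, 511 and 372 CPM in WT replicates 1 to 4. ApoE-/- replicate 1 was below all WT libraries, ApoE-/- replicates 2 and 3 were above them, and ApoE-/- replicate 4 fell just under the highest WT value. The log2 fold change of Abcc9 was 0.32 (SE 0.32, adjusted p = 0.808, edgeR; fold 95% interval 0.748 to 2.10).

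Kcna5 (chr6:126532551-126535412, minus strand) encodes Kv1.5, a voltage-gated potassium channel. Its values were 19.4, 22.2, 16.03 and 26.9 CPM in ApoE-/- replicates 1 to 4 and 24.4, 19.9, 30.2 and 24.8 CPM in WT replicates 1 to 4. The lowest was an ApoE-/- library and the highest a WT library, and the ranges overlapped broadly. With a log2 fold change of -0.23 (SE 0.19, adjusted p = 0.760, edgeR), Kcna5 was the lowest of the 10 on the fold scale, and its spread among ApoE-/- libraries, 1.68-fold, was the smallest.

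Calcium entry was represented by 2 genes. Cacna1c (chr6:118587240-119196418, minus strand) encodes the pore of the L-type channel Cav1.2, the main route of voltage-gated calcium entry in arterial muscle. Cacna1c stood at 96.4, 232, 318 and 102 CPM in ApoE-/- replicates 1 to 4, against 181, 176, 254 and 148 CPM in WT replicates 1 to 4. ApoE-/- replicates 1 and 4 lay below every WT library, and ApoE-/- replicate 3 lay above every WT library. The means of the genotypes were close, with a log2 fold change of -0.02 (SE 0.40, adjusted p = 0.995, edgeR; fold 95% interval 0.520 to 1.87).

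Trpc6 (chr9:8544142-8680741, plus strand), whose CArG box is shown above, encodes a cation channel opened by diacylglycerol downstream of receptors. Trpc6 was the least abundant of the 10, at 11.6, 4.77, 6.40 and 5.69 CPM in ApoE-/- replicates 1 to 4 and 7.62, 7.68, 7.59 and 5.84 CPM in WT replicates 1 to 4. Here ApoE-/- replicate 1 was the highest of the 8 libraries, and ApoE-/- replicates 2 and 4 were the lowest. The log2 fold change was -0.01 (SE 0.28, adjusted p = 0.997, edgeR) with all libraries and -0.35 (SE 0.18, adjusted p = 0.342) without ApoE-/- replicate 1.

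Calcium release was also represented by 2 genes. Ryr2 (chr13:11553102-12106945, minus strand) encodes a ryanodine receptor, which in arterial muscle produces calcium sparks that open BK channels, and which is the release channel of heart muscle. Its values were 213, 311, 293 and 123 CPM in ApoE-/- replicates 1 to 4 and 208, 192, 335 and 215 CPM in WT replicates 1 to 4. ApoE-/- replicate 4 was the lowest library and WT replicate 3 the highest, and the log2 fold change was -0.02 (SE 0.31, adjusted p = 0.995, edgeR). The cardiac muscle markers had a median log2 fold change of -2.77, and the part of heart muscle in the Ryr2 level was not tested. Itpr1 (chr6:108213096-108551109, plus strand) encodes the type 1 inositol trisphosphate receptor, which releases stored calcium after vasoconstrictor signals. Itpr1 was at 380, 861, 782 and 562 CPM in ApoE-/- replicates 1 to 4 and at 644, 598, 755 and 571 CPM in WT replicates 1 to 4. ApoE-/- replicates 1 and 4 were the lowest of the 8 and ApoE-/- replicates 2 and 3 the highest, for a log2 fold change of 0.01 (SE 0.26, adjusted p = 0.997, edgeR).

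Ano1 (chr7:144588549-144751974, minus strand) encodes the calcium-activated chloride channel TMEM16A, which depolarises arterial muscle. It was at 96.0, 153, 198 and 128 CPM in ApoE-/- replicates 1 to 4 and at 131, 109, 109 and 94.9 CPM in WT replicates 1 to 4. ApoE-/- replicates 2 and 3 were above all WT libraries, while ApoE-/- replicate 1 was close to the lowest WT library. Ano1 had the largest log2 fold change of the 10, 0.37 (SE 0.22, adjusted p = 0.631, edgeR; fold 95% interval 0.912 to 1.83), which did not exceed the spread between libraries.

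ApoE-/- replicate 1 stood apart in its contractile and neuronal markers, so each difference was also taken without it. In that comparison 0 of 10 genes passed the adjusted threshold with edgeR, beside 3.91% of all genes tested. Abcc9 gave a log2 fold change of 0.57 (SE 0.19, adjusted p = 0.156) and Ano1 one of 0.52 (SE 0.17, adjusted p = 0.152), both with an unadjusted p under 0.05 (0.0178 and 0.0169), beside 9.93% of all genes higher at that level. With DESeq2 on the same 7 libraries, an alternative chosen after seeing the data, Abcc9 alone was called (log2 fold change 0.56, SE 0.20, adjusted p = 0.0480), beside 5.75% of all genes called higher and 10.3% in either direction. Kcnmb1 moved from 0.15 to 0.46 and Cacna1c from -0.02 to 0.20 when this library was left out, neither past the threshold. The plot of fold changes gives both sets of values.

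**Figure D2:**
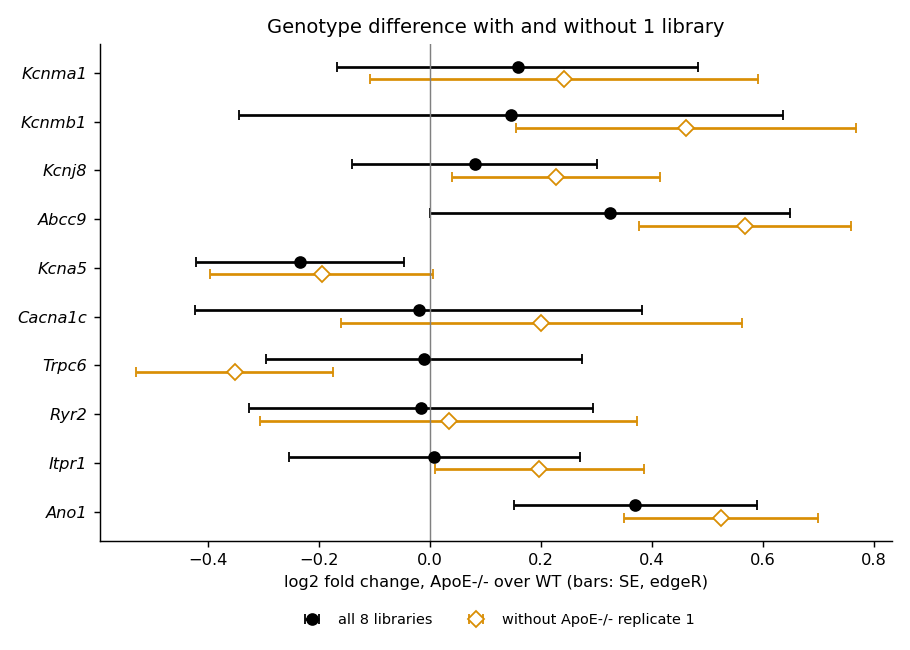
Log2 fold change (ApoE-/- over WT, horizontal axis) of the 10 genes with its SE from edgeR, with all 8 libraries (filled circles) and without ApoE-/- replicate 1 (open diamonds). Without that library 9 of 10 estimates lie further up, with Abcc9 at 0.57 and Ano1 at 0.52, and Trpc6 falls to -0.35.

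The spread among mice was larger in ApoE-/- than in WT aortas for 10 of 10 genes, beside 85.4% of all genes tested. The median SD of log2 CPM over the 10 genes was 0.58 in ApoE-/- and 0.23 in WT libraries, against 0.34 and 0.18 over all genes. Without ApoE-/- replicate 1 it was still larger in ApoE-/- libraries for 10 of 10 genes, beside 73.0% of all genes. The median SD of the ApoE-/- libraries was then 0.37, against 0.27 over all genes. This replicate was the lowest of the 8 libraries for 5 genes, Kcnmb1, Kcnj8, Abcc9, Cacna1c and Itpr1. Compared with the mean of the other 3 ApoE-/- libraries, Kcnmb1 stood at 0.225-fold in it, Abcc9 at 0.387-fold, Cacna1c at 0.444-fold and Itpr1 at 0.516-fold. By contrast, Ryr2 stood at 0.877-fold, Kcna5 at 0.893-fold and Kcnma1 at 0.789-fold, and Trpc6 was 2.07-fold higher. ApoE-/- replicate 4 was the lowest of the 8 libraries for Kcnma1 and Ryr2.

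From mouse to mouse, 5 of the 10 genes had a correlation over 0.8 with the contractile markers, beside 13.7% of all genes tested. Correlations with the contractile score were taken over the 8 libraries after subtracting the genotype means, and describe these libraries only, since the points share their depth and the low library ApoE-/- replicate 1. Pearson's r was 0.996 for Kcnmb1, 0.981 for Itpr1, 0.980 for Abcc9, 0.852 for Cacna1c and 0.842 for Ano1. It was lower for Kcnj8 (0.694), Kcnma1 (0.571) and Ryr2 (0.480), near 0 for Kcna5 (0.056) and negative for Trpc6 (-0.705). Some other marker scores had an r of larger size, namely adipocyte for Kcnma1 (-0.888) and Ryr2 (-0.749), T cell for Ryr2 (-0.801) and skeletal muscle for Kcna5 (-0.816). These were picked from all marker scores after their values were seen. Over the 7 libraries without ApoE-/- replicate 1, Kcnma1 (0.926) and Ryr2 (0.871) also followed the contractile score, while Kcnmb1 (0.986), Itpr1 (0.944), Abcc9 (0.917) and Cacna1c (0.895) still did. The values of Ano1 (0.598) and Kcnj8 (0.293) fell without that library, so that 6 of 10 genes were over 0.8, beside 13.5% of all genes. The pericyte marker score went with the same 5 genes and Kcnj8 over the 8 libraries. Its r was 0.967 for Kcnmb1 and Abcc9, 0.944 for Itpr1, 0.928 for Ano1, 0.835 for Cacna1c and 0.815 for Kcnj8. This score too was lowest in ApoE-/- replicate 1, at 5.61, with the other libraries at 6.16 to 6.52. Its correlations were not taken without that library or set beside those of all genes. The part of smooth muscle cells in this score was not tested. The negative value of Trpc6 rested on that library and became 0.339 without it, and its correlation with the sympathetic neuron score fell from 0.884 to 0.504.

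**Figure D3:**
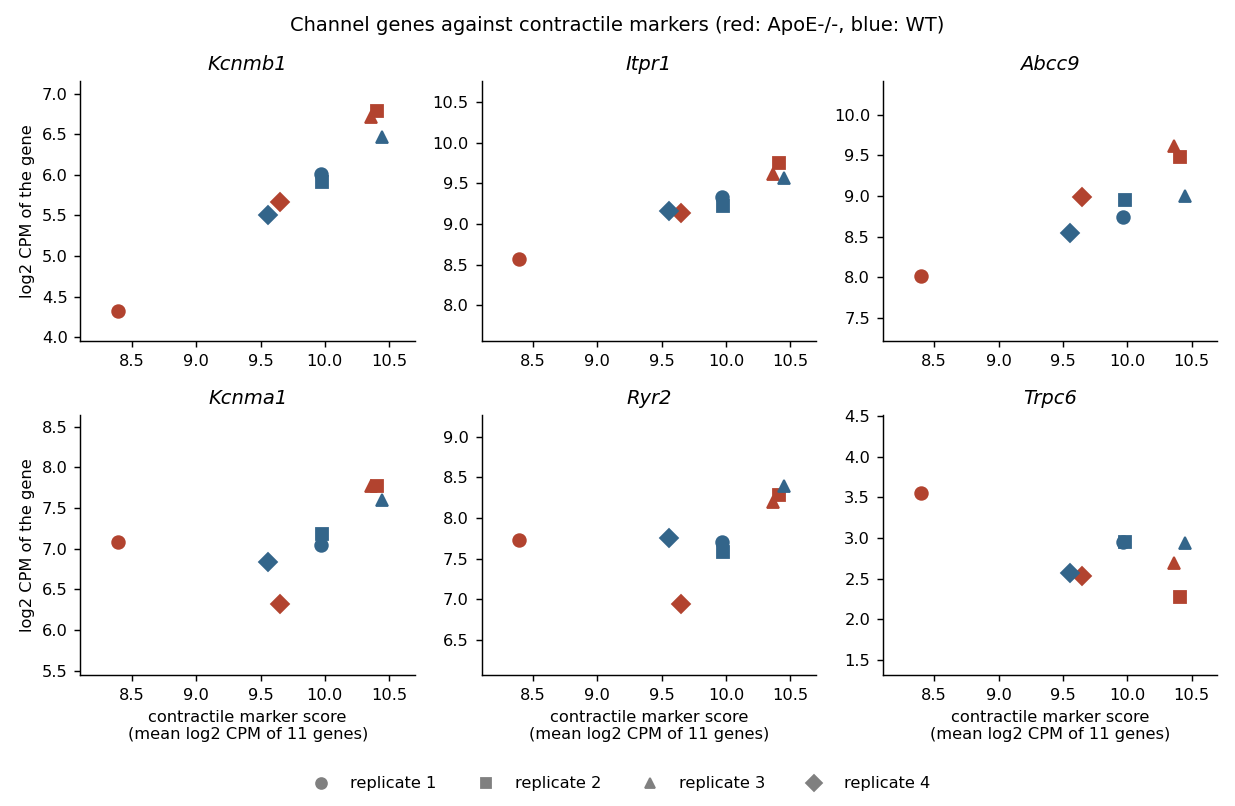
Log2 CPM of 6 genes (vertical axes, all of equal span) against the contractile marker score (mean log2 CPM of 11 genes, horizontal axis) in each ApoE-/- (red) and WT (blue) aorta. Kcnmb1, Itpr1 and Abcc9 rise with the score in all libraries, whereas in ApoE-/- replicate 1, at a score of 8.39, Kcnma1 and Ryr2 are not low and Trpc6 is at its highest.

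Relative to the contractile markers, 1 of the 10 genes separated the genotypes. The log2 CPM of Abcc9 minus the contractile score was -0.38, -0.93, -0.75 and -0.66 in ApoE-/- replicates 1 to 4 and -1.23, -1.02, -1.45 and -1.02 in WT replicates 1 to 4. Every ApoE-/- library was above every WT library, by 0.50 on average. Of all genes tested, 2.77% were higher without overlap on this scale. With the contractile score as a covariate in edgeR, the log2 fold change of Abcc9 was 0.42 (SE 0.10, adjusted p = 0.0737), which did not pass. With this covariate 3 of the 10 genes had an unadjusted p under 0.05, beside 2682 of 15077 genes: Abcc9, Ano1 (0.44, SE 0.13, adjusted p = 0.130) and Kcnmb1 (0.24, SE 0.08, adjusted p = 0.163). Ano1 differed by 0.61 on the same scale, but its genotypes overlapped, as did those of the other 8 genes. In WT aortas Kcnmb1, Cacna1c and Kcnma1 kept an almost fixed distance to the contractile markers, with an SD of 0.05, 0.07 and 0.08 (n = 4), where 1.04% of all genes had an SD under 0.1. These 3 were named for their small SD in WT aortas, so their larger SD in ApoE-/- aortas (0.23, 0.53 and 0.84, and 0.20, 0.47 and 0.41 without ApoE-/- replicate 1) carries no comparison. With all libraries the SD of Abcc9 (0.23), Itpr1 (0.42) and Ano1 (0.56) was larger in ApoE-/- than in WT aortas (0.20, 0.21 and 0.34), and without that replicate it was smaller (0.14, 0.12 and 0.27), while the other 7 genes kept the larger SD in ApoE-/- aortas. The medians over all genes without it were 0.50 in ApoE-/- and 0.39 in WT aortas. The marker score of pericytes, mural cells that also carry ATP-sensitive potassium channels, ran from 5.61 to 6.51 in ApoE-/- and from 6.30 to 6.52 in WT libraries (p = 0.229, exact permutation test), and its part in the Abcc9 difference was not tested.

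Subunits that work together were set against each other as ratios of CPM per kb. Kcnma1 to Kcnmb1, pore to beta subunit of the BK channel, gave 1.68, 0.490, 0.513 and 0.390 in ApoE-/- replicates 1 to 4 and 0.509, 0.595, 0.542 and 0.622 in WT replicates 1 to 4. In ApoE-/- replicate 1 alone the pore gene exceeded the beta subunit gene per kb, and the other ApoE-/- libraries were at the low end of the WT range or below it. The ratio of Abcc9 to Kcnj8 ran from 2.36 to 4.91 in ApoE-/- and from 2.50 to 3.65 in WT libraries, so the regulatory subunit gene was above the pore gene in all 8. Itpr1 exceeded Ryr2 per kb in all 8 libraries too, from 2.80 to 7.16 in ApoE-/- and from 3.54 to 4.89 in WT libraries, with the highest ratio in ApoE-/- replicate 4. None of these 3 ratios differed between genotypes beyond the spread (exact two-sided permutation test on the log2 ratio, p = 0.971, 0.514 and 0.971, all 0.971 after Benjamini-Hochberg adjustment over the 3 ratios).

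**Figure D4:**
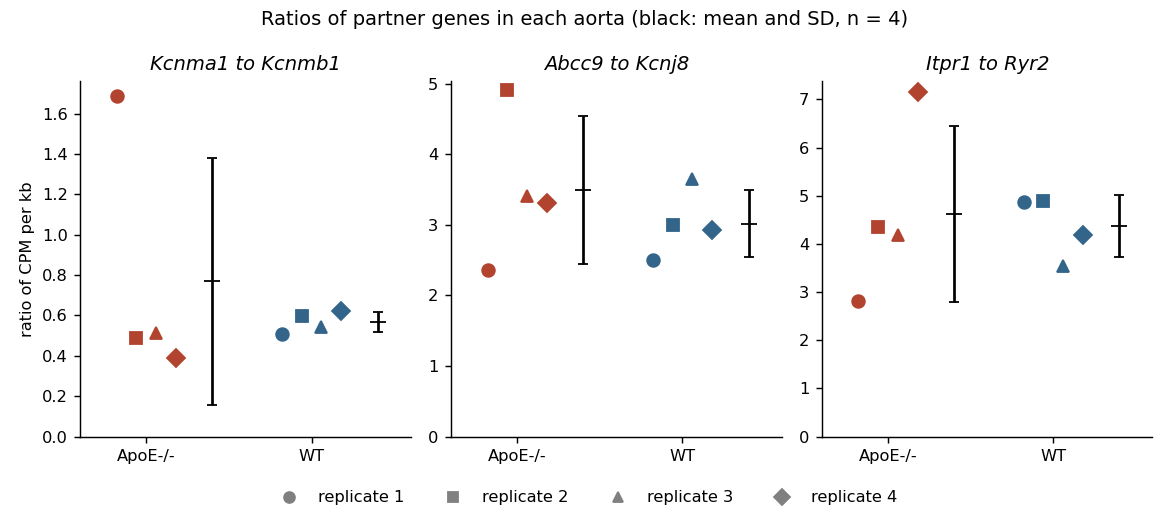
Ratio of CPM per kb (vertical axes, from 0) for 3 pairs of partner genes in each ApoE-/- (red) and WT (blue) aorta, with the mean and SD of each genotype in black. The Kcnma1 to Kcnmb1 ratio is 0.390 to 0.622 in 7 libraries and 1.68 in ApoE-/- replicate 1.

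The genes most like each of the 10 across the libraries were found by the same correlation over all genes tested. Kcnmb1 was closest to Mylk, the kinase that starts smooth muscle contraction (r = 0.999), then to Tbx18 and Tafa1. Abcc9 was closest to Fgf2 (r = 0.997), Vipr2 and Itprip, Itpr1 to Fmnl3 (r = 0.996), Vezf1 and Fam160a1, and Cacna1c to Cdc14b (r = 0.997), Zfp746 and Gli2. Kcnma1 was closest to Magi2 (r = 0.994), Tex13b and Plekha5, and Ryr2 to Prpf40b (r = 0.989), Pcdhga12 and Ccdc112. Trpc6 was closest to Tmem164 (r = 0.992), St8sia2 and Glp1r, Kcnj8 to Erf (r = 0.981), Runx1 and Rara, Ano1 to Kdm2b (r = 0.982), Tcea3 and Dusp14, and Kcna5 to Lsm14b (r = 0.978), Sepsecs and E030030I06Rik. Among the 10 themselves the 3 closest pairs were Kcnmb1 with Itpr1 (r = 0.992), Kcnmb1 with Abcc9 (r = 0.975) and Kcnma1 with Ryr2 (r = 0.949). Without ApoE-/- replicate 1 these values were 0.976, 0.915 and 0.952, and Kcnma1 was closer to Cacna1c (0.965) and Kcnmb1 (0.964) than to Ryr2. With 8 libraries and 15077 genes such values describe the pattern and carry no test.

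The other genes of the same pathways were tested in the same fit. Of 94 listed genes 87 were tested, and 0 of 87 passed the adjusted threshold with edgeR, beside 0.464% of all genes. At an unadjusted p of 0.05, 9 were higher and 5 lower, beside 7.19% and 4.17% of all genes, and DESeq2 called 2 higher and 4 lower, beside 4.97% of all genes in either direction. The median log2 fold change of the 87 was 0.09, beside 0.05 for all genes. Of the partner subunits of the BK and ATP-sensitive channels, 3 of 6 were tested and 0 passed at either threshold: Abcc8 and Kcnj11, the pancreatic-type subunits, both gave a log2 fold change of -0.46 (adjusted p = 0.693 and 0.712, edgeR). Kcnmb4, the neuronal beta subunit, was at 29.5 CPM in ApoE-/- replicate 1 and at 0.219 to 5.01 CPM in the other 7 libraries. Other potassium channels gave 2 of 20 higher at an unadjusted p of 0.05, Kcnn4, the intermediate-conductance channel of endothelium and immune cells (0.75, SE 0.18, adjusted p = 0.113; adjusted p = 0.00638 with DESeq2), and Kcna3 (1.12, SE 0.45, adjusted p = 0.373). The macrophage markers were also higher in all 4 ApoE-/- libraries, and their part in the Kcnn4 difference was not tested. Kcna3 was at 4.22 CPM in that replicate, and without it the log2 fold change was 0.51 (SE 0.26, adjusted p = 0.341).

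Among the 24 calcium store and extrusion genes, 4 were lower without overlap of the genotypes and 3 higher, beside 3.30% and 5.41% of all genes. The 4 lower ones are store genes best known from heart muscle. Pln, phospholamban, the brake on the store's calcium pump, was at 21.8 ± 2.50 CPM in ApoE-/- and 40.9 ± 7.31 CPM in WT aortas (SD, n = 4), or -0.91 on the log2 scale (SE 0.15, adjusted p = 0.0526, edgeR). Casq2, the calsequestrin of the heart, averaged 7.55 ± 2.26 CPM in ApoE-/- aortas and 19.1 ± 4.21 CPM in WT aortas, which gave -1.34 on the log2 scale (SE 0.24, adjusted p = 0.0591). Trdn, triadin, and Sln, sarcolipin, which were chosen after their values were seen, gave -2.26 (SE 0.44, adjusted p = 0.0660) and -3.78 (SE 1.24, adjusted p = 0.254). DESeq2 called all 4 lower, and the cardiac muscle markers were lower in the same libraries; their part in these differences was not tested. Without ApoE-/- replicate 1 all 4 passed with edgeR, from an adjusted p of 0.0288 (Pln) to one of 0.00905 (Sln), and Sln gave -6.62 (SE 0.85) on the log2 scale. The 3 higher genes, also chosen after their values were seen, were Orai2, Orai1 and Atp2b1. Orai2 and Orai1 are pore subunits of store-operated calcium entry, with log2 fold changes of 1.26 (SE 0.33, adjusted p = 0.138; adjusted p = 0.0134 with DESeq2) and 0.33 (SE 0.12, adjusted p = 0.294). Atp2b1, a calcium pump of the cell membrane, gave 0.33 (SE 0.11, adjusted p = 0.266).

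Of 11 voltage-gated calcium channel subunits 0 passed at an unadjusted p of 0.05, with Cacnb3 at 0.62 (SE 0.32, adjusted p = 0.551, edgeR; 0.21 without ApoE-/- replicate 1) and Cacna2d1 at 0.39 (SE 0.21, adjusted p = 0.586). Of 11 other TRP and mechanosensitive channels, Trpv2 was at 0.42 (SE 0.19, adjusted p = 0.440; 0.24 without ApoE-/- replicate 1). Of 8 other chloride channels, 3 were higher at an unadjusted p of 0.05, beside 7.19% of all genes, namely Clic1 at 0.32 (SE 0.11, adjusted p = 0.287), Ano2, a relative of Ano1, at 0.75 (SE 0.30, adjusted p = 0.366; 0.49 without ApoE-/- replicate 1), and Ano10 at 0.21 (SE 0.09, adjusted p = 0.394). Of 10 genes of nitric oxide and cyclic nucleotide signalling 0 passed, with Nos3, the endothelial nitric oxide synthase, at -0.35 (SE 0.19, adjusted p = 0.578; -0.20 without ApoE-/- replicate 1) and Adcy6 at -0.18 (SE 0.14, adjusted p = 0.750). Pde1c, a phosphodiesterase chosen after its values were seen, was at -0.56 (SE 0.44, adjusted p = 0.753) with all libraries and passed without ApoE-/- replicate 1 (-1.17, SE 0.26, adjusted p = 0.0491). The endothelial marker score was lower in ApoE-/- aortas by 0.41 (p = 0.0286, exact permutation test), and its part in the Nos3 value was not tested.

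**Figure D5:**
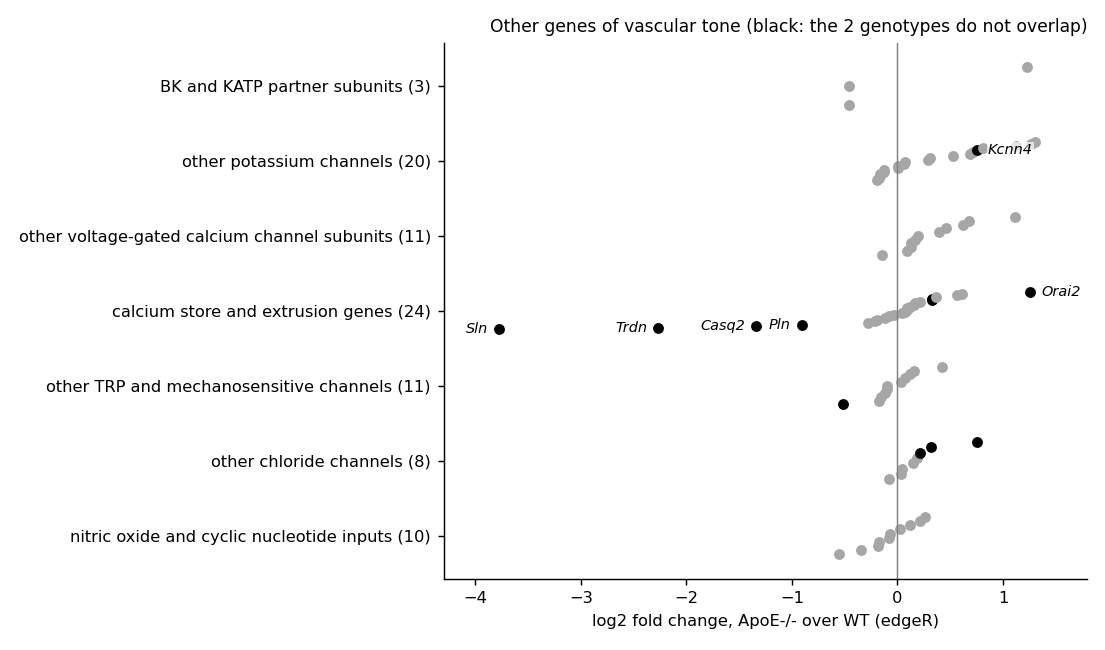
Log2 fold change (ApoE-/- over WT, edgeR, horizontal axis) of the 87 other genes of vascular tone that were tested, by list, with the number tested in each list in brackets. Black points mark genes whose ApoE-/- and WT libraries do not overlap, and the lowest 4 are Sln, Trdn, Casq2 and Pln, from -3.78 to -0.91.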

How the data were processed

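Total RNA of whole aortas was sequenced from 4 ApoE-/- and 4 WT mice, grouped by the sample titles. The authors made stranded, ribodepleted libraries read as paired ends and deposited raw counts per gene, 1 file per mouse, not normalized. The submitters' processing notes name TopHat2, HTSeq, GRCm38 and mm10, with versions not given in the sources used here. Rows without a gene were left out of library sizes; 27.9% to 35.6% of read pairs fell on genes, a higher share in each ApoE-/- library (32.3% or more) than in each WT library (30.2% or less).

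Genes kept by filterByExpr were tested with edgeR 4.0.16 in R 4.3.3 (TMM factors, robust glmQLFit, glmQLFTest, two-sided, Benjamini-Hochberg over all genes tested). SE is the log2 fold change divided by the square root of F. CPM use TMM library sizes; log2 CPM have a prior count of 2. Single values were compared by exact permutation over 70 assignments. Alternatives were DESeq2 1.42.0, which the paper names, limma-voom (limma 3.58.1), 2 other scalings, 2 other filters, no robust estimation, a replicate block, a contractile score covariate and leaving out each library. The edgeR step was tested on simulated data. Positions and exon lengths come from GENCODE M21, which held 21817 of 21859 gene identifiers. Opposite-strand exons overlap Kcnma1, Abcc9 and Itpr1, and counting was stranded.

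The 10 genes and all lists were chosen with earlier results of these data known. Named beside them are Apoe, the 2 listed genes with the smallest p in each list and any called, partner subunits, defining markers, and the 3 genes most correlated with each of the 10. An item that this rule names is not reported here. P-values set the genotype difference against the variation between these 4 and 4 mice.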

Additional observations from a re-analysis of the deposited data

Results flagged for a closer look

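Single libraries were compared with the other 3 of their genotype by Dixon's ratio, the gap to the nearest library over the whole range, against its critical value at the 95% level. Of 68 groups of values 7 passed, where chance passes about 1 in 20, or 3.4. Among the levels of the 10 genes, Trpc6 was low in WT replicate 4 (5.84 CPM, the other WT libraries at 7.59 to 7.68) and Ryr2 was high in WT replicate 3 (335.2 CPM, the others at 192.1 to 214.9). The ratio of Kcnma1 to Kcnmb1 per kb was high in ApoE-/- replicate 1 (1.685, the others at 0.390 to 0.513). Relative to the contractile score, Kcnj8 (-5.03, the others at -4.32 to -4.26) and Trpc6 (-7.505, the others at -7.02 to -6.99) were low in WT replicate 3 on the log2 scale. Among the marker scores, cardiac muscle was high in ApoE-/- replicate 1 (2.955, the others at 0.40 to 0.78) and T cells were low in WT replicate 3 (-1.021, the others at -0.31 to -0.27).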

How the results depend on the processing

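With 4 libraries per genotype and the spread seen here, the 95% intervals of the fold reached from 0.507 to 2.42 (Kcnmb1). A change of a gene inside its interval is not excluded, and the intervals do not say which changes the test could call. Over 170 pairs of gene and alternative, 142 kept the direction of the reported log2 fold change and 28 did not; 0 had an adjusted p under 0.05, and the lowest was 0.0737 (Abcc9 with the contractile score as covariate). The count of the 10 genes called was 0 under all 17 alternatives and 1 with DESeq2 without ApoE-/- replicate 1, chosen after seeing the data.

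The 70 genes called in all became 725 with DESeq2 (470 higher, 255 lower), 29 with limma-voom, 499 with the contractile score as covariate, 0 to 593 when each library was left out (593 without ApoE-/- replicate 1, and 17 or fewer without any other) and 1562 with DESeq2 without ApoE-/- replicate 1. Same-numbered libraries came from different mice and did not pair (correlations of their deviations 0.059, -0.448, 0.316 and 0.162; 1 of 4 correlated best with its own number); under the replicate block 2 genes were called in all and 0 of the 10. The 0 other genes of vascular tone became 6 with DESeq2, 1 with upper-quartile factors, 5 with the covariate, 0 to 5 when each library was left out (5 without ApoE-/- replicate 1) and 12 with DESeq2 without ApoE-/- replicate 1.

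Directions turned for Kcnmb1 with limma-voom (-0.10) and the replicate block (-0.070), for Itpr1 with these (-0.052 and -0.051) and with upper-quartile factors (-0.014), and for Cacna1c (0.10 and 0.19) and Ryr2 (0.076 and 0.029) with the covariate and with DESeq2 without ApoE-/- replicate 1. The skeletal muscle score turned with upper-quartile factors (-0.027). When each library was left out, the log2 fold change ran from -0.015 to 0.38 for Kcnma1, -0.14 to 0.46 for Kcnmb1, -0.15 to 0.23 for Kcnj8, -0.40 to 0.20 for Cacna1c, -0.35 to 0.14 for Trpc6, -0.18 to 0.20 for Ryr2, -0.16 to 0.20 for Itpr1, 0.13 to 0.57 for Abcc9, -0.37 to -0.12 for Kcna5 and 0.18 to 0.52 for Ano1. Score differences ran from -0.52 to 0.15 for contractile smooth muscle, -0.29 to 0.18 for skeletal muscle and -2.33 to 0.060 for sympathetic neurons. The causes of these changes were not tested.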

Other observations

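ApoE-/- replicate 1 held many channel genes at levels far above the other libraries. Of the 87 other genes of vascular tone tested, 12 were over 2-fold higher in it than in any other library (13.8%, beside 7.48% of all genes tested), a count chosen after its values were seen. They were Kcnmb4, Kcna3, Kcna4, Kcnab2, Kcnq5, Kcnj12, Kcnn2, Kcnn3, Cacnb1, Cacna2d2, Cacna2d3 and Fkbp1b. Kcnn2, a calcium-activated potassium channel, was at 12.8 CPM in it and at 0.347 to 2.87 CPM elsewhere. Kcna2, a voltage-gated potassium channel, was at 237 CPM in it and at 42.6 to 153 CPM elsewhere. None of the 10 genes was over 2-fold above the other 7 libraries. Of the 10, 1 was more than 2-fold below the other 7, Kcnmb1, beside 1.01% of all genes tested and 2.3% of the 87 other genes. Cacnb2, a beta subunit of the L-type channel, was low there at 23.9 CPM, against 33.9 to 96.0 CPM in the other libraries. The sympathetic neuron markers were highest in the same library, and their part in these levels was not tested.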
